A study of Mus musculus with 6 samples.

Results

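The genes described here are 4 matrix metalloproteinases (Mmp13, Mmp12, Mmp14 and Mmp19), 2 of their tissue inhibitors (Timp1 and Timp2) and Col18a1, a collagen of basement membranes. They are 7 of 12393 measured genes and are represented by 15 probe sets, each annotated to that gene alone. They were picked with their differences between Rad21 shRNA and control arrays already known. Those earlier results covered all 3 groups of arrays. Every difference of these 7 genes, between the shRNAs too, is therefore a description with its standard error and without a p-value. Counts of these genes past a threshold are given beside the share over all genes, and nothing is read from them.

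RNA was profiled on 6 Affymetrix arrays. The cells were lineage-depleted bone marrow from 6- to 8-week-old C57/BL6 mice. The 2 empty vector arrays, the 2 Rad21 shRNA1 arrays and the 2 Rad21 shRNA2 arrays all come from cells exposed to lentivirus for 24 h, selected in puromycin at 1 µg/mL, sorted as live cells and grown for 7 days in methylcellulose with unnamed cytokines. The target of both shRNAs, Rad21, is part of cohesin, which pairs sister chromatids and folds chromatin into loops. The labels do not say whether replicates were separate cultures or animals, or whether marrow was pooled, so the p-values rest on a spread between arrays that may be technical only. All values are log2 of the deposited intensity, differences are on that log2 scale, and ± is the standard error of the limma fit unless stated otherwise.

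Matrix metalloproteinases are zinc-dependent enzymes that are made as inactive precursors and cut collagens, elastin and other proteins around cells. TIMPs bind their active site and block them, and TIMP2 also helps MMP14 to activate the precursor of MMP2 at the cell surface. Macrophages are a known source of several of these enzymes, MMP12 being named macrophage elastase. Collagen XVIII releases endostatin, an inhibitor of blood vessel growth, when proteases cut its end.

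Empty vector replicate 1 stood apart from the other arrays. Its Gapdh 3′ control probe set lay 2.42 above the 5′ one, against -0.078 to 0.017 elsewhere. Each array's median intensity lay between 100.2 and 104.9, and Rad21 itself stood at 11.14 and 10.49 with empty vector, 9.63 and 9.14 with shRNA1, and 9.50 and 9.11 with shRNA2 (both against empty vector -1.47 ± 0.26, limma adjusted p = 0.0558). Main differences from empty vector are given below with and without replicate 1.

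The start sites of Mmp13 and Mmp12, which are neighbours on chromosome 9, are shown first. AP-1, the Fos and Jun factor family, is a textbook activator of metalloproteinase genes, and its part in the results was not tested. Each stretch is the 100 bases before a RefSeq start (build GRCm38.p6), read 5′ to 3′ on the gene's strand. In the Mmp13 and Mmp12 stretches capitals mark a match to the AP-1 motif TGANTCA, and in the Timp2 and Col18a1 stretches to the GC box GGGCGG or its reverse complement.
Mmp13, chr9:7272414-7272513, plus strand: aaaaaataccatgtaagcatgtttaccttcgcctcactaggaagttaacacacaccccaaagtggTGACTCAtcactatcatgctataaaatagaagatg
Mmp12, start 2 of 2, chr9:7347274-7347373, plus strand: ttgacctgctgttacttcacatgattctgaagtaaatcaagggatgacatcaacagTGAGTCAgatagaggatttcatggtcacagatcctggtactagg
Timp2, chr11:118355412-118355511, minus strand: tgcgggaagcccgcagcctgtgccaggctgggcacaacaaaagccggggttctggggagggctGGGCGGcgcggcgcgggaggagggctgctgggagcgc
Col18a1, start 1 of 2, chr10:77166531-77166630, minus strand: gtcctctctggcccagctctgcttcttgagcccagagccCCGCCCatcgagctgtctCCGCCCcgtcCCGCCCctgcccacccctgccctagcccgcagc

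Promoter windows of 300 bases, from 250 before to 50 after a start, were found for 6 of the 7 genes, 8 windows in all, and Mmp19 was not analysed in this way. The AP-1 letters, which read the same on both strands, were found in 2 of these 8 windows and in 7.81% of all 32851 windows. In Mmp13 they began 35 bases before the start, and in Mmp12 44 bases before its second start. The window of the other Mmp12 start held no match. The GC box, on either strand, was in 4 of the 8 windows (Mmp14, Timp1, Timp2 and Col18a1) and in 35.7% of all, and the ETS family letters AGGAAG in 5 of 8 and 35.4%. TATAAA was found in the Mmp13 window and the second Mmp12 window, and in 13.6% of all. Counted as bases before the start, it began at 16 in Mmp13 and at -4, past the start, in Mmp12. These are matches of letters, not measured binding, and their part in the results was not tested.

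All 7 genes averaged lower with Rad21 shRNA than with empty vector, by a median of -2.16 over both shRNAs, beside -0.023 over all genes. The order of the group means was the same in each: empty vector highest, then shRNA1, then shRNA2. In 5 of the 7 (Mmp13, Mmp19, Timp1, Timp2 and Col18a1) neighbouring groups in this order did not overlap, a pattern of 4.73% of all genes. In the fit over all genes 4 of the 7 were past the threshold of an adjusted p of 0.05 for both shRNAs together, where 2.13% of all genes were (1.4% lower and 0.734% higher). For shRNA1 alone it was 1 of 7, with 0.234% of all genes (0.137% lower and 0.0968% higher), and for shRNA2 alone 4 of 7, with 2.83% (1.95% lower and 0.88% higher). Nothing is read from these counts, since this contrast was known when the genes were picked. Both single comparisons share the same 2 control arrays.

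**Figure D1:**
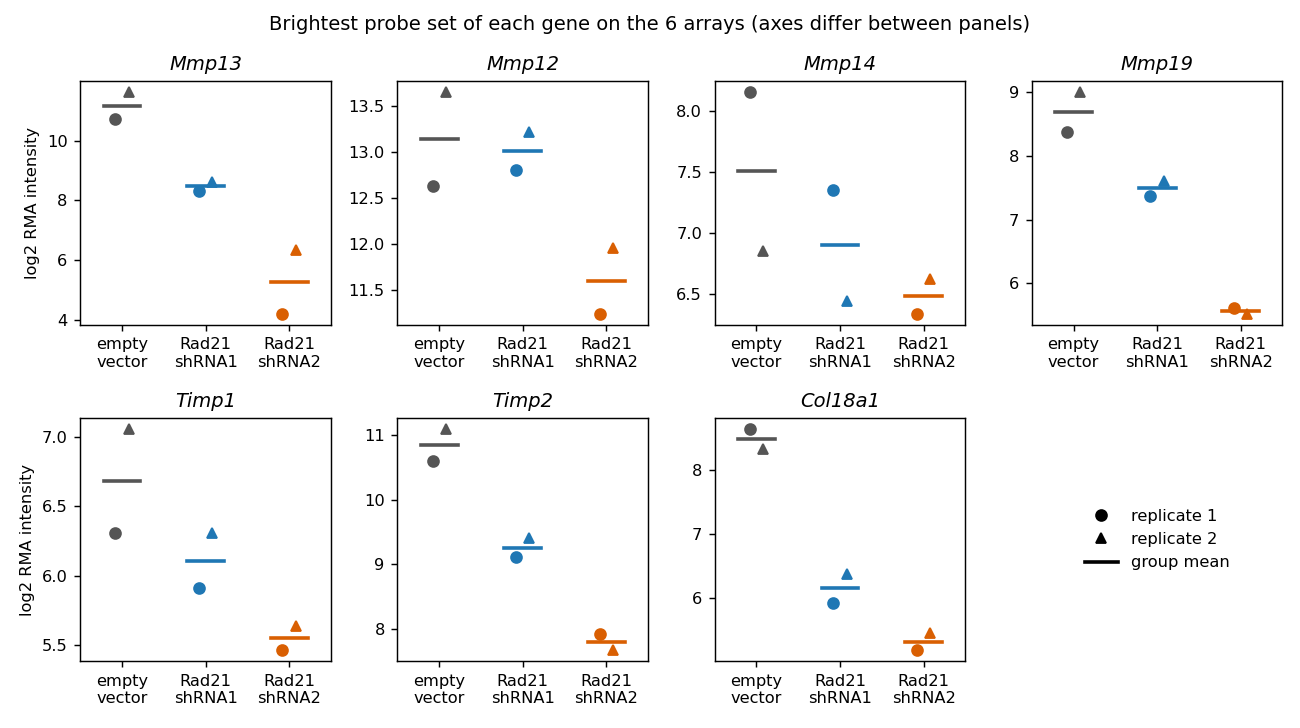
Log2 RMA intensity of the brightest probe set of each of the 7 genes on the 6 arrays, with circles for replicate 1, triangles for replicate 2 and lines for group means. Empty vector has the highest and shRNA2 the lowest mean in each panel, and in Mmp12 and Mmp14 the empty vector and shRNA1 arrays overlap.

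Mmp13, a collagenase that cuts fibrillar collagens, had the widest spread between groups. Its single probe set read 10.71 and 11.62 with empty vector, 8.31 and 8.62 with shRNA1, and 4.21 and 6.33 with shRNA2. Each shRNA1 array was below both control arrays and each shRNA2 array below both shRNA1 arrays. The mean differed by -2.70 ± 0.69 with shRNA1 (6.49 times lower) and by -5.90 ± 0.69 with shRNA2 (59.6 times lower). Over both shRNAs the difference was -4.30 ± 0.60, or -4.75 without empty vector replicate 1, and ranked 2 among all genes from the most negative. The shRNA2 arrays had an SD of 1.503 (n = 2), the largest between replicates in the 7 genes, so the size with shRNA2 was -4.83 without its replicate 1 and -6.96 without its replicate 2. Both shRNA2 readings lay below the median of their array (6.68 and 6.67).

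Mmp12, the macrophage elastase and the next gene along the chromosome, differed from empty vector mainly on the shRNA2 arrays. It read 12.62 and 13.65 with empty vector, 12.80 and 13.22 with shRNA1, and 11.24 and 11.95 with shRNA2. Both shRNA1 arrays lay between the 2 control arrays, and both shRNA2 arrays lay below all others. The differences were -0.13 ± 0.41 for shRNA1 and -1.54 ± 0.41 for shRNA2. Without empty vector replicate 1 they were -0.64 and -2.05. Without replicate 2 the shRNA1 difference changed sign, to 0.38, and the shRNA2 one was -1.03.

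Mmp19, a secreted enzyme that cuts basement membrane proteins, read 8.38 and 9.0 with empty vector, 7.37 and 7.61 with shRNA1, and 5.61 and 5.52 with shRNA2. No group overlapped another. The mean differed by -1.20 ± 0.24 with shRNA1 (2.30 times lower) and by -3.12 ± 0.24 with shRNA2 (8.72 times lower), or by -1.51 and -3.43 without empty vector replicate 1. Its second probe set read 6.85 and 8.50, then 6.91 and 7.20, then 5.77 and 5.79 in the same order of groups. On that probe set empty vector replicate 1 lay just below both shRNA1 arrays, and only the shRNA2 arrays stood clear of the others. Its difference over both shRNAs was -1.26, and -2.08 without empty vector replicate 1.

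Mmp14, the membrane-anchored enzyme that activates MMP2, did not separate by group. Its brighter probe set read 8.15 and 6.86 with empty vector, 7.35 and 6.45 with shRNA1, and 6.34 and 6.63 with shRNA2. The control arrays differed by 1.29 from each other, more than the -0.81 ± 0.42 between both shRNAs and empty vector. Without empty vector replicate 1 that difference was -0.17, and the shRNA1 difference turned from -0.61 to 0.042. The dimmer probe set spanned 4.22 to 4.58 over all 6 arrays.

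Of the inhibitors, Timp2 was lower in steps from group to group on its 3 brightest probe sets. The brightest read 10.60 and 11.10 with empty vector, 9.11 and 9.41 with shRNA1, and 7.92 and 7.67 with shRNA2. The differences were -1.59 ± 0.23 with shRNA1 (3.005 times lower) and -3.05 ± 0.23 with shRNA2 (8.31 times lower), or -1.84 and -3.31 without empty vector replicate 1. The next 2 probe sets differed by -1.91 ± 0.21 and -2.00 ± 0.22 over both shRNAs, close to the -2.32 ± 0.20 of the brightest. The other 3 differed by -0.49, -0.40 and 0.13, or by -0.86, -0.92 and 0.027 without empty vector replicate 1. The last of these read 3.25 to 3.63 on all arrays, far below the array medians. With the mean of all 6 probe sets Timp2 differed by -1.16.

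Timp1 read 6.31 and 7.06 with empty vector, 5.91 and 6.30 with shRNA1, and 5.46 and 5.64 with shRNA2. No group overlapped another, though empty vector replicate 1 and shRNA1 replicate 2 were nearly level. The differences were -0.58 ± 0.29 for shRNA1 and -1.13 ± 0.29 for shRNA2, and -0.95 and -1.51 without empty vector replicate 1. Over both shRNAs the difference was -0.85, and -0.48 with replicate 1 as the only control.

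On its brighter probe set and with both control arrays, Col18a1 differed by -2.76 over both shRNAs, the largest fall of the 7 genes after Mmp13. That probe set read 8.64 and 8.34 with empty vector, 5.93 and 6.37 with shRNA1, and 5.18 and 5.46 with shRNA2. Here empty vector replicate 1 was the higher control, and no group overlapped another. The difference was -2.34 ± 0.22 with shRNA1 (5.07 times lower) and -3.17 ± 0.22 with shRNA2 (9.02 times lower). Without empty vector replicate 1 these were -2.19 and -3.02. In that setting Mmp19 (-3.43) and Timp2 (-3.31) fell by more with shRNA2. Over both shRNAs Col18a1 then stood at -2.60 and Timp2 at -2.57. The second probe set read 7.47 and 7.19, then 6.08 and 6.53, then 5.47 and 6.19, a difference of -1.26 ± 0.26 over both shRNAs, with overlap between the 2 shRNA groups only.

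**Figure D2:**
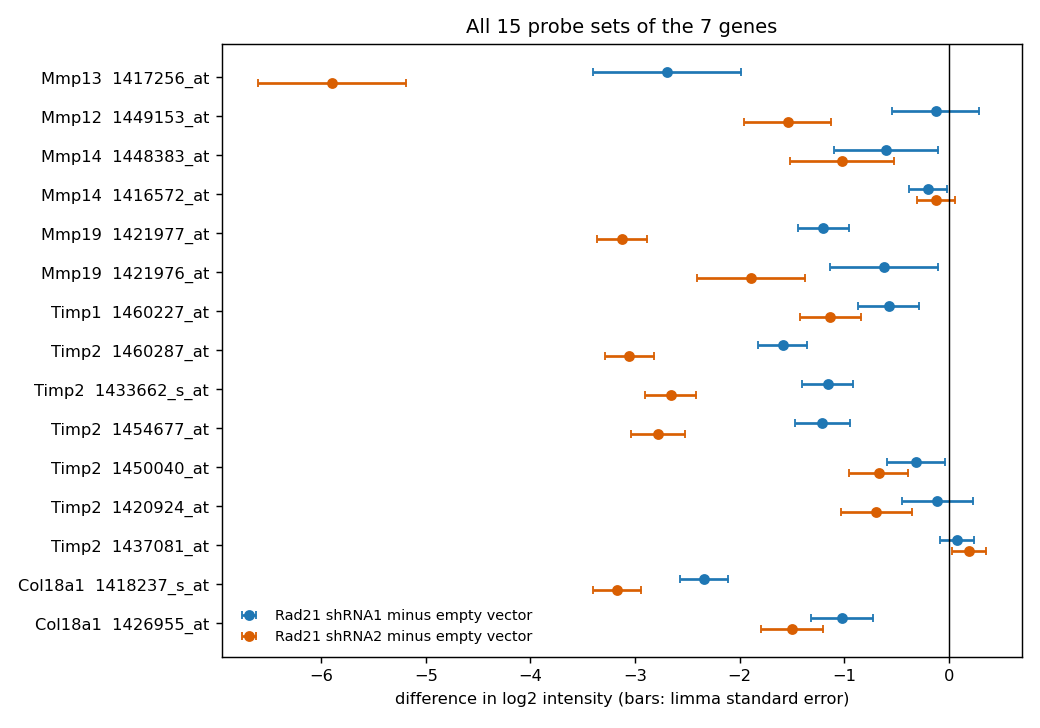
Difference from empty vector in log2 intensity for shRNA1 and shRNA2 on each of the 15 probe sets, with bars for the limma standard error of the fit over all probe sets. The dimmest Timp2 probe set lies to the right of 0 for both shRNAs, and all others lie to the left.

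The difference between the 2 shRNAs uses no control array. All 7 genes averaged higher with shRNA1 than with shRNA2, by a median of 1.41 beside -0.021 over all genes. Both shRNA1 arrays were above both shRNA2 arrays in 6 of the 7, Mmp14 being the exception, and in 17.7% of all genes. The values of these same arrays were known when the genes were picked, and a gene picked for a low shRNA2 level would tend to lie higher with shRNA1, so nothing is read from these shares.

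Mmp13 had the largest difference, 3.20 ± 0.69 (9.18-fold), which was 2.14 without shRNA2 replicate 1 and 4.26 without shRNA2 replicate 2. Mmp19 differed by 1.92 ± 0.24 (3.79-fold), Timp2 by 1.47 ± 0.23 (2.77-fold) and Mmp12 by 1.41 ± 0.41 (2.66-fold). Col18a1 differed by 0.83 ± 0.22 and Timp1 by 0.56 ± 0.29. Mmp14, at 0.42 ± 0.49, differed by less than its standard error, and by -0.039 without shRNA1 replicate 1. In the limma fit of all 6 arrays 0 of the 7 and 0% of all genes were past the threshold, and at an unadjusted p under 0.05 5 of the 7 and 3.26% of all genes were higher with shRNA1. In a fit of the 4 shRNA arrays alone, added after seeing the data, 0.355% of all genes were past the threshold. That fit was not repeated with an array left out. These counts too are a description.

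**Figure D3:**
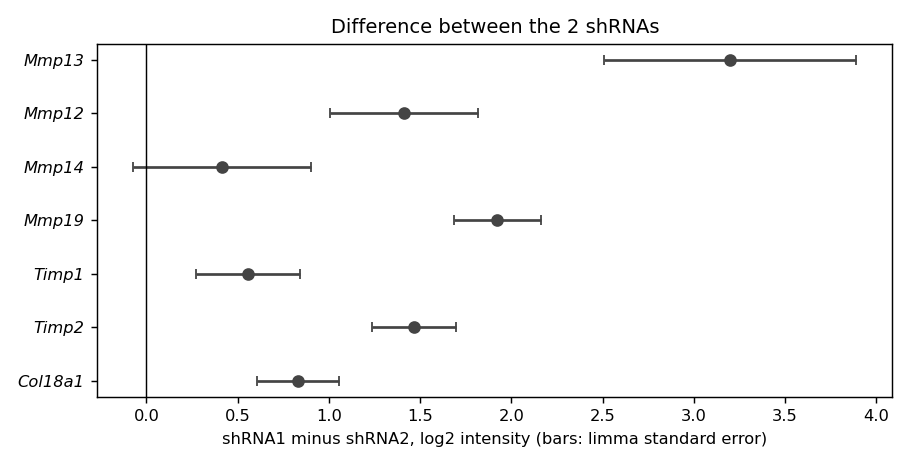
Difference between the shRNA1 and shRNA2 group means of each gene in log2 intensity, with bars for the limma standard error. All 7 points lie above 0, Mmp13 farthest and Mmp14 nearest, and the Mmp14 bar reaches below 0.

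Rad21 itself was nearly level between the shRNAs, at means of 9.38 and 9.30. Of 20 macrophage markers measured, 19 were higher with shRNA1 than with shRNA2, by a median of 0.80. Over all genes 55.0% were lower with shRNA1. Osteoclast markers were higher with shRNA1 in 8 of 8 genes, megakaryocyte markers in 7 of 9 and erythroid markers in 8 of 13. Dendritic cell and endothelial markers were higher in 8 of 12 each, and fibroblast and stromal markers in 7 of 16. Neutrophil markers were higher in 5 of 14, mast cell and basophil markers in 4 of 13, and osteoblast and chondrocyte markers in 2 of 9. The macrophage markers summed to 71237 and 75930 with shRNA1, 53852 and 52449 with shRNA2, and 43081 and 81085 with empty vector. The brightest of them, Lyz1 and Lyz2, read 13.09 to 14.33 on every array. Against empty vector 10 macrophage markers were higher and 10 lower over both shRNAs, and 6 higher and 14 lower (median -0.67) without empty vector replicate 1. The lipid receptor Cd36 differed by -2.94 while the IgG receptor Fcgr1 differed by 2.51. In these bulk samples fewer cells of a type and less RNA per cell cannot be told apart, and the part of macrophage content in the results was not tested.

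Osteoclast markers, another possible source of Mmp13 and Mmp14, were lower over both shRNAs in 8 of 8 measured genes, with a summed intensity of 1974 and 5001 with empty vector, 2194 and 3029 with shRNA1, and 973 and 907 with shRNA2. The brightest of them was the collagen-cutting protease Ctsk, and Calcr, the calcitonin receptor, read only 3.13 to 3.38. Mast cell and basophil markers were lower in 13 of 13 genes and megakaryocyte markers in 9 of 9. The dendritic cell list was lower in 11 of 12, and neutrophil markers were higher in 12 of 14. Over all genes 53.6% were lower. Past the threshold by limma with all 6 arrays were 3 mast cell and basophil, 1 megakaryocyte, 1 osteoclast and 2 dendritic cell markers, all lower. Of the neutrophil markers 5 were past it, all higher. Over all genes 1.4% passed as lower and 0.734% as higher. The counts of higher and lower genes in these lists and the osteoclast list were the same without empty vector replicate 1. The part of these lists in the results was not tested. Of 16 fibroblast and stromal markers 6 were higher and 10 lower, and none passed by limma with all 6 arrays. Without empty vector replicate 1 there were 10 higher and 6 lower. Their summed intensity, mostly that of S100a4, was 9865 and 10346 with empty vector and 10437 to 12202 on the shRNA arrays. The list was uneven: Col1a1, Col3a1 and Lum read 2.96 to 4.62 on every array, and Thy1 read 8.30 to 8.92. Fn1 or fibronectin differed by -2.79 (-4.29 without empty vector replicate 1) and Pdgfrb by 2.08. Of 12 endothelial markers 4 were higher and 8 lower with and without that array, none passing by limma with all 6 arrays. Their sum was 2300 and 2097 with empty vector and 1323 to 1857 with the shRNAs. Cdh5 read 4.36 to 4.67, while Pecam1 read 8.13 to 8.40 and Vwf, also a megakaryocyte gene, 8.43 to 10.13 with a difference of -1.26. The part of both lists was not tested. Erythroid markers summed to 16014 on empty vector replicate 1 and to 4452 to 5329 on the other arrays.

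Mmp13 and Mmp12 open a run of 10 metalloproteinase genes on chromosome 9, of which 9 were measured and Mmp27 was not analysed here. Beyond them the next genes, Mmp1b, Mmp3, Mmp1a and Mmp10, were dim (2.78 to 5.22 on every array) and differed by -0.12 to 0.0043 over both shRNAs, or by -0.11 to 0.13 without empty vector replicate 1. Mmp8, the collagenase of neutrophils, was bright, and its order of groups differed from that of Mmp13 and Mmp12. It read 9.73 and 11.20 with empty vector, 12.10 and 12.42 with shRNA1, and 10.51 and 10.55 with shRNA2, a difference of 0.93 ± 0.40 over both shRNAs (limma adjusted p = 0.322) and of 1.73 ± 0.46 between shRNA1 and shRNA2 (0.674). Without empty vector replicate 1 the difference over both was 0.19, with 1.06 for shRNA1 and -0.67 for shRNA2, so its sign with shRNA2 rests on that array. Mmp20, an enzyme of tooth enamel, differed by -0.10 (0.047 without that array), and Mmp7 or matrilysin by -0.46 ± 0.18 (adjusted p = 0.277; -0.43 without it). The genes flanking the run, Dcun1d5 and Tmem123, differed by 0.86 ± 0.32 (adjusted p = 0.257) and 0.35 ± 0.31 (0.645). On both of these empty vector replicate 1 was the lowest array, and without it they differed by 0.28 and -0.22.

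**Figure D4:**
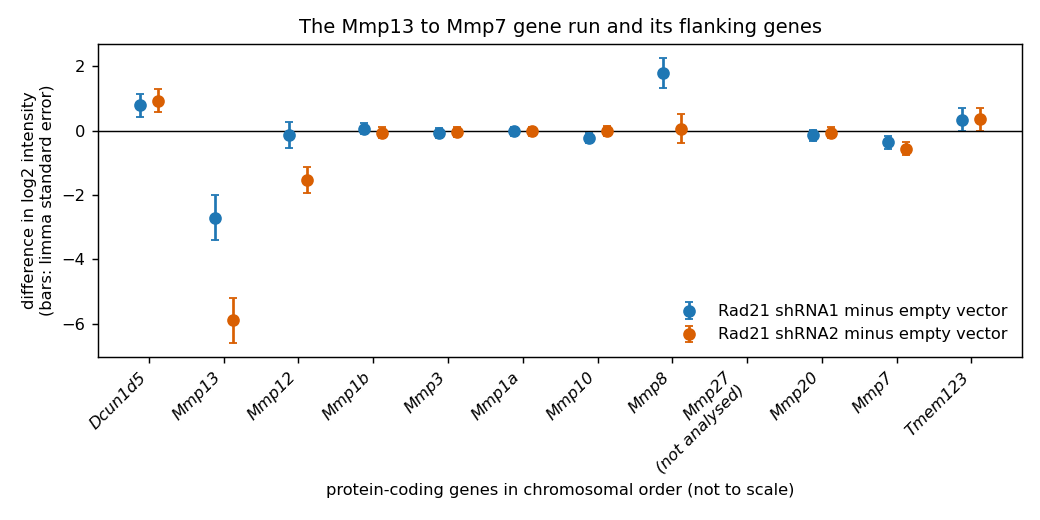
Difference from empty vector in log2 intensity, with limma standard errors, for the protein-coding genes from Dcun1d5 through the metalloproteinase run to Tmem123 in chromosomal order, not to scale. Mmp13 is lowest with both shRNAs, Mmp12 is low with shRNA2, and Mmp8 is highest with shRNA1, all against both control arrays.

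The other genes of the pathway were looked at in 10 lists chosen from general knowledge and not for how they moved. Earlier results of these data were nevertheless known when the lists were chosen, so the list counts are not blind to these data. Of 14 other metalloproteinases and 11 other inhibitors none passed for both shRNAs against empty vector by limma, with medians of -0.076 and 0.067. At an unadjusted p under 0.05 there were 2 and 0, where 16.7% of all genes were. The smallest p-values belonged to Mmp2, the gelatinase that MMP14 and TIMP2 activate, at 0.90 ± 0.20 (limma adjusted p = 0.102), and to Mmp7 (above). Mmp2 read 5.40 and 5.45 with empty vector and 5.88 to 6.61 on the shRNA arrays. Among inhibitors the smallest were Spock1 at -0.33 ± 0.19 (adjusted p = 0.449) and Reck, a membrane-anchored inhibitor, at 0.74 ± 0.42 (0.451). Reck read 6.88 and 5.43 with empty vector, and without replicate 1 it rose by 1.46 ± 0.25 (limma adjusted p = 0.0402), while Spock1 differed by -0.053 and Mmp2 by 0.87. Timp3 differed by 0.18 and Timp4 by 0.028, both named after their values were seen.

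Over all 10 lists 6 of 202 genes passed, 5 lower and 1 higher, which is 2.97% beside 2.13% of all genes. Leaving out empty vector replicate 1 made it 19 of 202, 17 lower and 2 higher, which is 9.41% beside 5.24% of all genes. The 6 genes named next were among the 19, with differences of -2.17 for Plau, -1.55 for Adam8, -1.12 for Sdc1, -2.10 for Csf1, -0.87 for Junb and 2.41 for Ctsg. Of 14 plasminogen system and activation genes 1 fell, Plau or urokinase, which makes plasmin (-1.90 ± 0.29, limma adjusted p = 0.0405, range 0.0106 to 0.19). It read 8.75 and 9.29 with empty vector and 6.67 to 7.51 on the shRNA arrays. Of 21 ADAM and ADAMTS proteases 1 fell, Adam8, a membrane protease of white blood cells (-1.35 ± 0.17, adjusted p = 0.0285, range 0.00741 to 0.157). Its arrays read 10.70 and 11.11, then 10.02 and 10.30, then 8.91 and 8.98, the same order of groups as the 7 genes. Of 21 surface partners and uptake receptors 1 fell, the proteoglycan Sdc1 or syndecan-1 (-1.27 ± 0.19, adjusted p = 0.0397, range 0.00878 to 0.185, and 0.0514 with the replicate block).

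Among 19 cytokines and receptors 1 fell, Csf1, the macrophage growth factor (-1.93 ± 0.19, adjusted p = 0.0144, range 0.0048 to 0.0832). With the replicate number as a block 3 of them fell, Csf1, Il6 and Lif. Il6 differed by -1.94 (limma adjusted p = 0.0271 with the block, 0.1 without) and Lif by -2.29 (0.0417 and 0.111). Without empty vector replicate 1 the largest fall in this list was that of Csf2 (-3.17) and the largest rise that of Csf1r (0.52). Both were named after their values were seen. Among 25 transcription factors known at these promoters 1 fell, Junb, a partner in AP-1 (-1.04 ± 0.15, adjusted p = 0.0395, range 0.00471 to 0.193). With the block Junb missed the threshold at 0.0514, and Fosb, another AP-1 subunit, passed (-1.82, adjusted p = 0.0282, and 0.0593 without the block). Of 13 cathepsins 1 rose, Ctsg, the serine protease of neutrophil granules (2.53 ± 0.25, adjusted p = 0.0138, range 0.00471 to 0.0854). With that outlying control array left out another 5 cathepsins fell (named after their values were seen), Ctsk by most (-2.13, limma adjusted p = 0.0129), then Ctsl (-1.74), Ctse, Ctsh and Ctsb.

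No collagen of 32 and none of 32 other matrix proteins passed by limma, with 2 and 4 at an unadjusted p under 0.05, a share below the 16.7% of all genes. With empty vector replicate 1 left out no collagen passed, and Fn1, singled out after its values were seen (-4.29, limma adjusted p = 0.0359), and Ecm1 (-1.56, 0.0463) fell. The smallest p-values were those of the basement membrane collagen Col4a2 (1.21 ± 0.35, adjusted p = 0.174, and 0.0212 with the replicate block), Col6a3 (-0.47 ± 0.15, 0.192), Ecm1 (-1.41 ± 0.24, 0.0534, and 0.0306 with the block) and Vcan or versican (2.10 ± 0.39, 0.0630). Col15a1, the closest relative of Col18a1 and named after its values were seen, differed by -0.31 ± 0.16 (adjusted p = 0.411). Leaving out any single shRNA array ended the calls of Plau, Adam8, Sdc1 and Junb, with adjusted p from 0.0820 to 0.193. Leaving out shRNA2 replicate 1 or 2 ended those of Ctsg (0.0854 and 0.0778) and Csf1 (0.0655 and 0.0777), and without shRNA1 replicate 1 Csf1 stood at 0.0832.

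**Figure D5:**
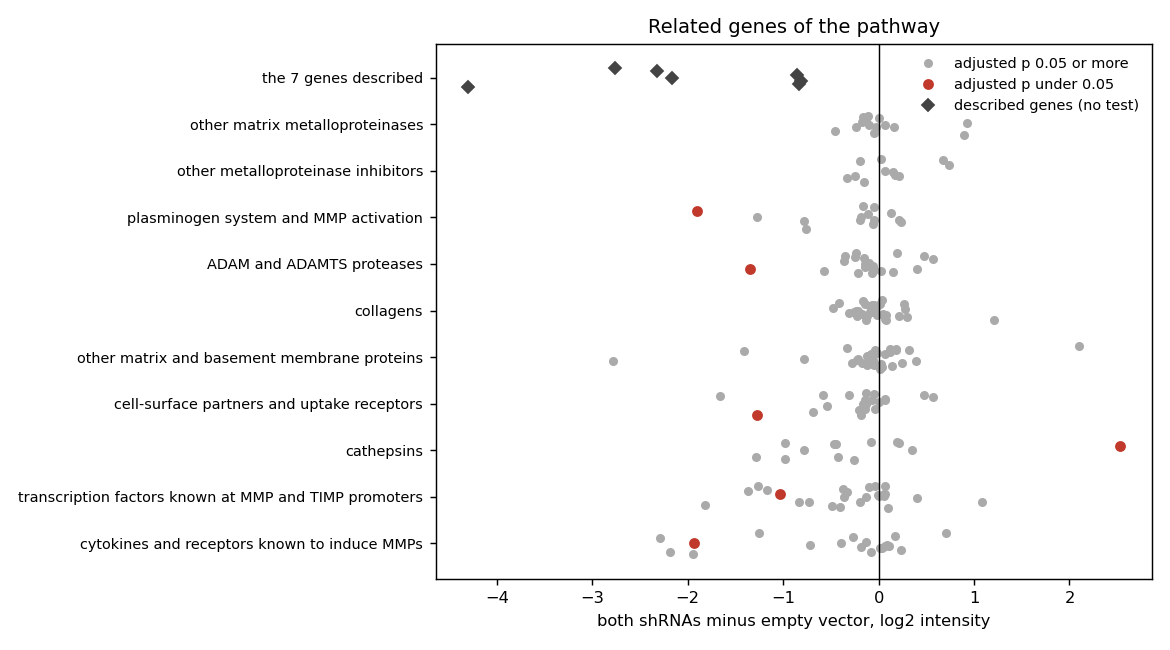
Difference of both shRNAs from empty vector in log2 intensity for the 7 genes (diamonds, without a test) and for each measured gene of the 10 related lists, coloured by whether the limma adjusted p is under 0.05. In the lists 6 genes are coloured, Ctsg to the right and 5 to the left, and most points lie near 0.

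The genes whose profile over the 6 arrays was most like that of Mmp13, among the 67 whose range was at least 50% of its range of 7.41, were Cdh1 or E-cadherin (Pearson r = 0.986), the lipase Mgll (0.976), Cd36 (0.975), Mfhas1 (0.9695) and the sterol enzyme Ch25h (0.964). Cdh1 read 11.40 and 11.47, then 8.56 and 9.73, then 5.28 and 6.73. Mmp12 was most like Grk5 (0.994), the macrophage enzyme Arg1 (0.992) and Sowahc (0.9901), and Arg1 read 11.06 and 13.21, then 11.31 and 12.18, then 7.12 and 9.62. Mmp19 was most like Ifi204, Adam8 and Gdpd1 (0.998 each), Timp2 like Csf1 (0.997), Egr2 (0.991) and Rgs10 (0.991), and Timp1 like Slc39a14 (0.998), Iqsec1 (0.998) and Dlgap4 (0.993). Col18a1 was most like Trpc6 (0.996), Itgb7 (0.994) and Cd200 (0.994). Mmp14 was most like the complement gene C1qb (0.991), Oplah (0.973) and Noct (0.957), of which C1qb read 6.15 on empty vector replicate 1 and 4.28 to 5.17 elsewhere. For each gene the search was limited in the same way to genes with at least 50% of its range, which left 890 for Mmp19, 900 for Col18a1, 922 for Timp2, 2173 for Mmp12, 3627 for Mmp14 and 4332 for Timp1. These values describe 6 arrays in 3 groups, so points within a group share its mean, and no test was made of them.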

How the data were processed

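The deposited table holds 1 intensity per probe set and array, to which the authors applied RMA, per the submitters' processing notes. Its version and the genome build were not given in the sources used. Values from 4.96 to 20614.6 showed a linear scale, so log2 was taken, as planned, with no pseudocount or further normalization. RMA equalizes the arrays' distributions, hides changes in total RNA and compresses dim differences. Of 22690 probe sets, 20380 with 1 gene in the platform annotation, Affymetrix controls aside, gave 12393 genes, each taken from its brightest probe set. No dim gene was removed, and all 7 genes described were kept in the fit.

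Groups and replicate numbers came from the sample titles. limma 3.58.1 (R 4.3.3) fitted all 6 arrays in 3 groups with lmFit and eBayes, with 3 residual and 2.91 prior degrees of freedom, two-sided, with Benjamini-Hochberg adjustment over all genes, and was tested on simulated data. Probe-set differences come from the same fit over all probe sets. Deviations of same-numbered arrays correlated at 0.199 (empty vector and shRNA1), 0.148 (empty vector and shRNA2) and 0.578 (shRNA1 and shRNA2). The main fit did not use the replicate number, and a fit with it as a block was run as an alternative. Plots used Python 3.11.15 and matplotlib 3.10.9. Promoter windows and gene order came from RefSeq, GRCm38.p6, matched by symbol.

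The genes, lists and tests were chosen with earlier results of these data known. Named were the 7 genes, up to 5 genes per direction past the threshold in each list or else the 2 smallest p-values, the chromosomal run, and the most similar profiles (5 for Mmp13, 3 for the others). Alternatives were 2 filters on dim genes, the mean of probe sets, each probe set, quantile normalization, median centring, an intensity trend, robust eBayes, array weights, the block and each array left out. Added after seeing the data were a fit of the 4 shRNA arrays alone and values of list, marker, neighbouring and second probe sets without empty vector replicate 1. For the planned test of the 7 genes between the shRNAs, differences and counts past a threshold are given, without a p-value of any gene. Those arrays' values were known when the genes were picked, so nothing is read from the counts. The number of arrays limits precision.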

Additional observations from a re-analysis of the deposited data

How the results depend on the processing

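The median difference of the 7 genes for both shRNAs was -2.16, from -2.47 to -1.85 with any array left out and -1.16 with the mean of all probe sets. Genes called for both shRNAs numbered 264, with 288 under the replicate block, 113 with the dimmer 50% left out, 51 with array weights and 3 to 3121 with an array left out. For shRNA1 alone 29 genes were called, with 3 after the dimmer 50% were left out, 11 with every probe set tested, 47 with median centring, 59 with an intensity trend, 8 with array weights and 0 to 2534 with an array left out. For shRNA2 alone there were 351, with 180 after the dimmer 50% were left out, 160 with array weights and 0 to 2941 with an array left out. Between the shRNAs limma called 0 genes, with 606 at an unadjusted p under 0.05, 98 with array weights, 44 with the shRNA arrays alone and 0 to 44 with an array left out. Over the 10 lists 6 genes were called, 9 with the replicate block, 3 with every probe set tested, 0 with array weights and 0 to 40 with an array left out. Signs changed on the dimmest Timp2 probe set (0.13 for both shRNAs, 0.075 for shRNA1, 0.19 for shRNA2, -0.12 between them) and on the dimmer Mmp14 probe set between the shRNAs (-0.081). With single arrays left out, the shRNA1 difference of Mmp12 ran from -0.64 (without empty vector replicate 1) to 0.38 (without replicate 2), and was 0.081 without shRNA1 replicate 1. That of Mmp14 ran from -1.25 to 0.042 (without empty vector replicate 2 or 1), and its difference between the shRNAs from -0.039 to 0.87 (without shRNA1 replicate 1 or 2). No call of the 7 genes between the shRNAs is read from any of these fits. The cause of the changes above was not tested. With 2 arrays a group, leaving out 1 leaves a lone array that is assumed to vary like the other groups.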
